A study of Mus musculus with 8 samples.

Results

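The genes described here are the ligands and receptors of 4 axon guidance systems, measured by RNA-seq in 8 cultures of 46C, a line of mouse embryonic stem cells. They are the ephrins and Eph receptors, the semaphorins of classes 3 to 7 and the plexins, the Slit and Robo genes, and the netrins. Members were chosen by symbol alone, and 62 genes matched among the 22717 features of the deposited tables. The line is known for a green fluorescent reporter at the Sox1 locus, a gene of early neural cells, and the labels give the strain as C57BL/6. The 4 lines were wild type (WT), LincNDIME_KO (here KO), shCtrl, which carries a control hairpin RNA, and shMef2c, which carries a hairpin RNA against Mef2c. By its label, the KO line lacks the long noncoding RNA NDIME, Mef2c codes for a MEF2 family regulator active in muscle, heart and neurons, and the study asks how they act in the neural differentiation of stem cells. Each line was sampled at day 0, as stem cells kept on irradiated feeder fibroblasts with serum and LIF, which holds them undifferentiated. Day 5 cultures were floating aggregates in serum replacement medium, labelled as neural progenitors. Feeder cells were thus present in all 4 day 0 cultures. The sources used here do not say whether a line came from 1 clone. There was 1 library per group, so nothing below has a replicate check and no p-value is given. In bulk samples of this kind, fewer cells of a type and less RNA per cell cannot be told apart.

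These families steer growing axons and migrating cells by contact or by gradients. Ephrins are membrane-bound ligands of the Eph receptor tyrosine kinases, with A ephrins held by a lipid anchor and B ephrins spanning the membrane, and the pair keeps neighbouring tissue compartments apart. Semaphorins signal through plexins, and the secreted class 3 proteins do so mostly with neuropilin co-receptors. Slits are secreted repellents read by Robo receptors, and netrins attract or repel axons through Dcc and Unc5 receptors. In the early neural tube, floor plate cells at the ventral midline are a known source of Ntn1 and Slit proteins, and the progenitors themselves already express many Eph, ephrin and plexin genes.

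The libraries held 25996204 to 26834802 estimated reads assigned to genes at day 5 and 20312032 to 20883674 at day 0. In the day 5 libraries Mef2c had 0.45 FPKM in WT against 0.10 in KO, and 0.50 in shCtrl against 0.12 in shMef2c. In the day 0 cultures it had 0.37 RPKM in the one labelled shMef2c against 0.16 in shCtrl, which goes against the label. That culture is therefore called the library labelled shMef2c wherever its day 0 values are used. All of these Mef2c values lie under 1, the filter on the mean level used below, so they are a weak check of the labels. No feature carries the name NDIME, so its deletion was not checked here. FPKM and RPKM are read counts scaled for gene length and library depth. The day 0 and day 5 tables were normalized separately, so levels of different days are set side by side with that limit.

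Promoters of 5 members are printed because their levels at day 5 carry the patterns described below. Sema5b was lower in both perturbed lines, Slit2 and Slit3 were lower in KO, Robo3 was lower in shMef2c, and Epha2 was higher in shMef2c. Each line gives the 250 bases before the transcription start, 5′ to 3′ in the direction of transcription, from RefSeq on build GRCm38.p6, which is not the mm9 build named for the files. Capitals mark matches to 7 motifs searched on both strands: GGGCGG (the GC box of Sp1-type factors), CCAAT (the CCAAT box), TATAAA (the TATA box), CAGCTG (an E box), ACAAAG (a Sox-type site), TGGGAA (the core of the Notch partner Rbpj) and the MEF2 consensus.
Sema5b, chr16:35541112-35541361, + strand: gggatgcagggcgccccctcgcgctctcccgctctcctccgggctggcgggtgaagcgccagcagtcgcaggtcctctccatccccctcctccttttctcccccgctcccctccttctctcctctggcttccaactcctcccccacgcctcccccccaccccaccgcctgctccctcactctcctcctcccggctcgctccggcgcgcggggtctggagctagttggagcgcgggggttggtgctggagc
Slit2, chr5:47982905-47983154, + strand: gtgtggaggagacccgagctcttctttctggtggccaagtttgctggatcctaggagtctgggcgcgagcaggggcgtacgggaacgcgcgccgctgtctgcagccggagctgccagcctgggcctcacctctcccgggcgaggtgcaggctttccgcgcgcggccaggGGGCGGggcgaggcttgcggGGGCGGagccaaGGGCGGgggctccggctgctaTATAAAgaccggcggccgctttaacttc
Slit3, chr11:35121206-35121455, + strand: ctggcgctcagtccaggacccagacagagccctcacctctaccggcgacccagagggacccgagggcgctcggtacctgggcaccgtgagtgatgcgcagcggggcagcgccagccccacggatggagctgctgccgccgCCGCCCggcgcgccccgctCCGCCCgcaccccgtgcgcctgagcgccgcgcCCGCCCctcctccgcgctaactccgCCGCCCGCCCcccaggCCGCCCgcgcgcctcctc
Robo3, chr9:37433176-37433425, - strand: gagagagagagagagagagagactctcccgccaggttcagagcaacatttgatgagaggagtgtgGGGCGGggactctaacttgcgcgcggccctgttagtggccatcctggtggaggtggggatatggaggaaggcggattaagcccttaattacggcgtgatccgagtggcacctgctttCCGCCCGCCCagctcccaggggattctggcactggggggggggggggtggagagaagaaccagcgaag
Epha2, chr4:141300971-141301220, + strand: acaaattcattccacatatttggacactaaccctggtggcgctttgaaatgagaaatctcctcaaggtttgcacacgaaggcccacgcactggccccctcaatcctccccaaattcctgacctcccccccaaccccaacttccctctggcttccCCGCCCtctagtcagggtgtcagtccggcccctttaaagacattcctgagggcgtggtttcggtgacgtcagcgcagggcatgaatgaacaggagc

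Counted on either strand, GGGCGG occurred 6 times in the Slit3 window, 3 times each in those of Slit2 and Robo3 and 1 time in that of Epha2, and the Sema5b window held none of the 7 motifs. In Slit3, the matches that start 34 and 30 bases before the start site overlap, and so do those at 68 and 64 bases in Robo3. The Slit2 window also holds TATAAA, 28 bases before the start. Promoters of 54 of the 62 members were found, without Efnb3, Ntn1, Plxna1, Plxna4, Sema3b, Sema3f, Sema6a and Slit1. Their median GC content was 64.4%, against 55.2% over 17492 protein-coding genes and 52.0% over all 27025 genes of the table. GGGCGG occurred in 39 of the 54 (72.2%), against 42.7% of protein-coding and 32.9% of all promoters of that length, and this motif is itself all G and C. TATAAA occurred in 2 of 54 (3.7%), against 13.0% of all. CCAAT was found in 27.8% (34.5% of all), CAGCTG in 16.7% (12.8%), ACAAAG in 11.1% (16.5%) and TGGGAA in 20.4% (21.5%). The MEF2 consensus matched 1 member promoter, that of Sema6d (1.9%, against 3.0% of all). These matches are letters in a window, not sites of binding.

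Of the 62 members, 27 were at 1 or more in all 8 libraries and 8 stayed under 1 in every library. The silent or near-silent members were Epha5, Epha6, Epha8, Epha10, Ntn5, Plxna4, Plxnb3 and Sema3g. The highest median levels over the 8 libraries belonged to Epha2 (31.0), Ntn1 (20.3) and Plxna1 (18.6). Plxna1, a receptor used by class 3 semaphorins with neuropilins, was present at both stages. It stood at 21.55 FPKM in WT, 22.06 in KO, 16.60 in shCtrl and 17.92 in shMef2c at day 5. Its day 0 levels were 14.05 RPKM in WT, 17.16 in KO, 19.24 in shCtrl and 25.17 in the library labelled shMef2c. The summed level of all members was 420.0 FPKM in WT and 412.0 in shCtrl at day 5, against 281.5 in KO and 338.2 in shMef2c. At day 0 the sums ran from 228.8 to 299.8 RPKM, with WT lowest. The sums therefore separated control from perturbed lines at day 5 and not at day 0.

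**Figure D1:**
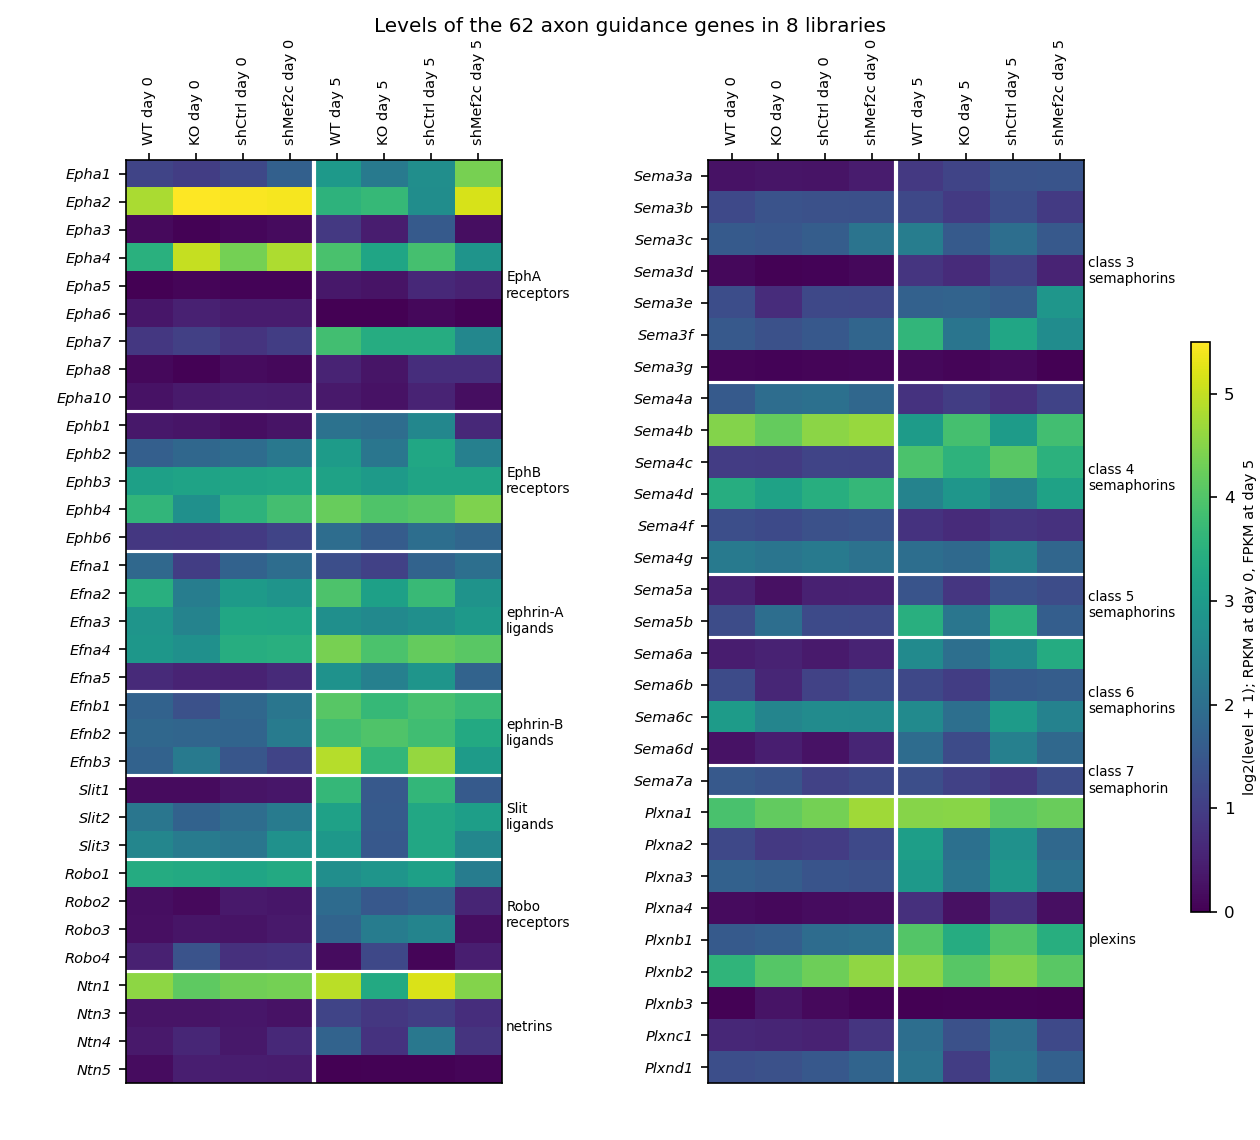
Levels of the 62 members as log2(level + 1) in each of 8 libraries (columns, RPKM at day 0 left of the white line and FPKM at day 5 right of it), with rows grouped by family. In both control lines the ephrin-B, Slit1 and Plxnb1 rows are brighter at day 5 than at day 0. Among the day 5 columns the Slit2 and Slit3 rows are darkest in KO, and Slit1 is about equally dark in KO and shMef2c.

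Ratios below are log2((value + 1)/(value + 1)) for members whose 2 values average at least 1, and "higher" and "lower" in a count mean a difference of at least 2-fold. Adding 1 draws the ratios of scarce genes towards 0. A gene can pass this filter through 1 library alone, so the members that passed are not all members. For changes from day 0 to day 5, the median ratio of all features found in both tables was subtracted.

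Between day 0 and day 5 the control lines showed more of these genes going up than down. In WT, 23 of 49 measured members were higher and 2 lower at day 5, where 15.3% of all features were higher and 14.7% lower. In shCtrl, 24 of 49 were higher and 4 lower (15.3% and 15.3% of all features). The member median was 0.92 in WT and 0.99 in shCtrl. Of 48 members measured in both courses, 21 were higher in both and 2 lower in both. The 3 ephrin-B genes were higher in both, with medians of 2.31 and 1.98, and so were 4 of 7 measured plexins.

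The steepest of these increases, averaged over the control lines, was that of Slit1, the Slit gene most restricted to the nervous system. Slit1 stood at 0.12 RPKM in WT and 0.23 in shCtrl at day 0 and at 11.71 and 11.49 FPKM at day 5. Sema4c, a transmembrane semaphorin that binds plexin B proteins, went from 0.96 to 14.31 in WT and from 1.19 to 16.11 in shCtrl. Epha7, a receptor with a role in forebrain wiring and neural tube closure, went from 0.85 to 13.28 and from 0.78 to 9.59. Plxnb1, a receptor of Sema4d, went from 1.95 to 15.34 and from 2.83 to 15.18. These members were picked for the highest day 5 over day 0 ratios averaged over the controls, so their higher day 5 values follow from the pick.

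Members that were lower at day 5 in the control lines were few, and class 4 semaphorins were among them. Sema4b, a transmembrane member of that class, went from 21.35 RPKM to 7.11 FPKM in WT and from 22.24 to 7.11 in shCtrl. Sema4d, the ligand of Plxnb1 known as CD100, went from 9.70 to 4.50 and from 9.95 to 4.50. Sema4a went from 1.94 to 0.74 and from 3.08 to 0.71, and Sema4f from 1.48 to 0.75 and from 1.57 to 0.79. Of these 4, only Sema4b was lower by 2-fold in both courses, at log2 ratios of -1.48 and -1.59. Epha2, a receptor abundant in stem cells, was the other such member, and its values are given below.

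At day 5 the perturbed lines held less of many of these genes than their controls. In KO, 9 of 49 measured members were lower than in WT and 0 higher, where 3.26% of all features were lower and 4.05% higher. The member median was -0.43, against 0.00 over all 12832 features, and 40 of the 49 ratios (81.6%) were below 0, against 49.8% of features. In shMef2c, 10 of 49 were lower than in shCtrl and 3 higher, where 4.78% of features were lower and 4.49% higher. The median was -0.54, against -0.05 over 13041 features, and 35 ratios (71.4%) were below 0, against 54.7%. The control libraries themselves were 2-fold apart in 0 of 50 measured members at day 5 (0.996% of features either way), with ratios from -0.85 for Epha2 to 0.72 for Robo3 and a median of 0.00. In KO the edge of the 2-fold count ran between Plxna2 (-1.05) and Ntn4 (-0.95), and in shMef2c between Epha4 (-1.02) and Plxna2 (-0.91).

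The pairs KO and WT, and shMef2c and shCtrl, have no library in common. Of 48 members measured in both, 31 (64.6%) were below 0 in both, against 37.6% of 12519 features, 6 were above 0 in both and 10 had opposite signs. Slit1, Efnb3 and Sema5b were 2-fold or more lower in both lines. They are 33.3% of the members lower in KO and 30.0% of those lower in shMef2c. The same shares over all features were not counted, so this overlap has no background. Against the other control library, 12 of 48 members were lower and 0 higher in KO (5.52% and 4.65% of features), and 11 of 48 lower and 3 higher in shMef2c (3.22% and 3.99%). When the difference was required against both control libraries, 7 members remained lower in KO, without Efnb3 and Plxna2. In shMef2c 8 remained lower, without Epha3 and Ntn4, and all 3 higher members remained. Counts against both controls were not made over all features.

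**Figure D2:**
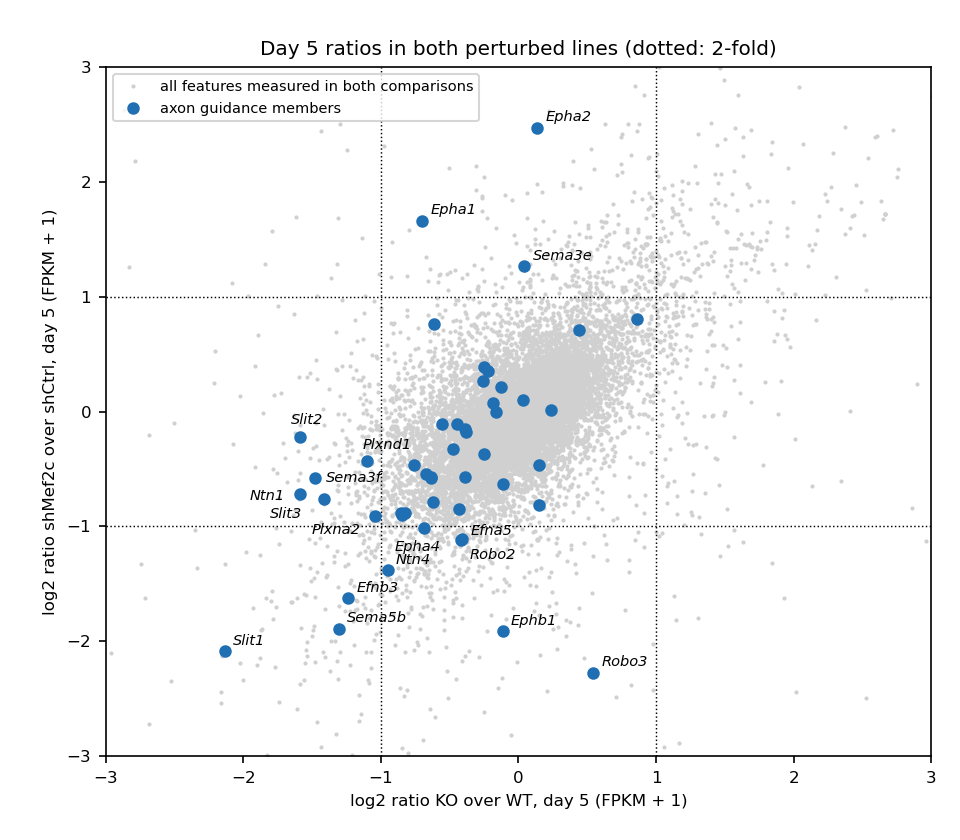
Log2 ratio of KO over WT (horizontal) and of shMef2c over shCtrl (vertical) at day 5 on FPKM + 1, for members (blue) and all features measured in both (grey, 58 outside the axes), with dotted lines at 2-fold. Slit1, Efnb3 and Sema5b lie beyond 2-fold lower on both axes, Slit2, Slit3 and Ntn1 are beyond 2-fold lower on the horizontal axis only, and Epha2, Epha1 and Sema3e are beyond 2-fold higher on the vertical axis only.

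The Slit genes, which encode secreted repellents, were lower in KO in all 3 cases. Slit1 stood at 11.71 FPKM in WT, 1.90 in KO, 11.49 in shCtrl and 1.94 in shMef2c at day 5. All 4 day 0 values of Slit1 lay between 0.12 and 0.26 RPKM. The 2 control values were nearly equal and both perturbed values were far below them. Relative to WT, KO had 0.168 times as large a share of reads (95% counting interval 0.150 to 0.187, 395 against 2384 reads), and shMef2c 0.156 times that of shCtrl (0.139 to 0.174, 373 against 2339 reads).

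Slit2, which with Slit1 keeps axons of the brain from crossing or straying, stood at 7.91 FPKM in WT and 1.96 in KO, but at 8.85 in shCtrl and 7.47 in shMef2c. The day 0 values were 3.45 RPKM in WT, 2.32 in KO, 2.90 in shCtrl and 3.88 in the library labelled shMef2c. Only the KO value lay apart from the other 3 at day 5, with a log2 ratio of -1.59 against -0.22 in shMef2c. Slit3, the family member common in mesenchyme, stood at 6.61 in WT, 1.86 in KO, 8.89 in shCtrl and 4.84 in shMef2c at day 5, and at 4.73, 3.86, 3.47 and 5.89 RPKM at day 0. Its log2 ratio was -1.41 in KO and -0.76 in shMef2c. The summed Slit level at day 5 was 26.2 in WT, 5.72 in KO, 29.2 in shCtrl and 14.3 in shMef2c.

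Robo receptors showed another order, with the low values in shMef2c. Robo3, which lets commissural axons reach and cross the midline, stood at 2.40 FPKM in WT, 3.95 in KO, 4.61 in shCtrl and 0.16 in shMef2c. In stem cells it was between 0.17 and 0.29 RPKM. The shMef2c value was the sole one at the day 0 level, with 22 reads against 610 in shCtrl, or 0.0352 times the share (0.0219 to 0.0538). The control libraries differed by a log2 ratio of 0.72, and Robo3 in KO lay between them. Robo2, a receptor of growing axons, stood at 2.80 in WT, 1.85 in KO, 2.22 in shCtrl and 0.48 in shMef2c, with 0.10 to 0.30 RPKM at day 0. Robo1, present in both stages, stood at 5.55, 6.25, 7.76 and 3.98 at day 5 and between 8.46 and 9.43 RPKM at day 0.

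Robo4, a receptor of blood vessel endothelium, was scarce and under the filter in both day 5 comparisons. Its level was 0.14 FPKM in WT, 1.28 in KO, 0.06 in shCtrl and 0.37 in shMef2c, from 14, 128, 6 and 37 reads. Day 0 levels were 0.41 RPKM in WT, 1.67 in KO, 0.69 in shCtrl and 0.75 in the library labelled shMef2c. KO was thus highest on both days, with 9.26 times the WT share of reads at day 5 (5.32 to 17.4) and 3.25 times at day 0 (2.16 to 4.99). It was named after its values were seen. Robo3 and Robo4 are next to each other on chromosome 9, and KO was highest for Robo4 only. Of 9 endothelium and blood markers, 4 reached 1 FPKM in KO at day 5 and 2 in WT, with summed levels of 27.2 and 13.2. The sum was highest in shCtrl (44.7), where Robo4 was lowest, and their part in the Robo4 values was not tested.

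Among the netrins, Ntn1 and Ntn4 carried most of the signal. Ntn1, the main midline attractant, stood at 29.55 FPKM in WT, 9.17 in KO, 35.56 in shCtrl and 21.20 in shMef2c at day 5. Stem cell cultures held 22.56 RPKM in WT, 16.67 in KO, 18.73 in shCtrl and 19.32 in the library labelled shMef2c. KO had the lowest value on both days, and its share of reads at day 5 was 0.31 times that in WT (0.292 to 0.330). The log2 ratio was -1.59 in KO and -0.72 in shMef2c. Ntn4, a basement membrane netrin that binds laminin, stood at 2.36 in WT, 0.74 in KO, 3.60 in shCtrl and 0.77 in shMef2c. At day 0 its values were 0.28 to 0.56 RPKM. Both perturbed values lay below both control values, from 46 and 48 reads against 148 and 219. Ntn3 reached 1.18 at most and Ntn5 0.37.

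The ephrins differed by class. Efnb3, a B ephrin of the nervous system midline, stood at 28.56 FPKM in WT, 11.56 in KO, 23.83 in shCtrl and 7.06 in shMef2c at day 5. Day 0 cultures held 2.33 RPKM in WT, 3.81 in KO, 1.76 in shCtrl and 1.18 in the library labelled shMef2c. Both perturbed lines were below both controls at day 5, while KO was the highest line at day 0. Read shares were 0.404 times WT (0.375 to 0.436) and 0.296 times shCtrl (0.270 to 0.325). Its log2 ratio in KO was -1.23 over WT and -0.98 over shCtrl. Efnb1 and Efnb2, the ephrins of cell sorting and vessel growth, stood between 9.11 and 15.75 at day 5 in all 4 lines, and their ratios lay between -0.46 and 0.15.

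Of the A ephrins, Efna5, a ligand that maps retinal axons, was the 1 past 2-fold in the day 5 comparisons of a line with its own control. Efna5 stood at 6.02 FPKM in WT, 4.29 in KO, 6.31 in shCtrl and 2.39 in shMef2c at day 5, and between 0.45 and 0.57 RPKM at day 0. Efna2 stood at 14.67, 7.72, 12.23 and 6.09 in the same order at day 5. Its ratios were -0.85 in KO and -0.90 in shMef2c, and -1.14 in shMef2c over WT. Efna1, Efna3 and Efna4 lie side by side on chromosome 3 and differed in level. In WT at day 5 they stood at 1.49, 5.69 and 19.84 FPKM, and their ratios in the perturbed lines lay between -0.45 and 0.26.

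The EphA receptors held both the highest and some of the lowest ratios in shMef2c. Epha2, a receptor of epithelia and stem cells, stood at 10.75 FPKM in WT, 11.89 in KO, 5.50 in shCtrl and 35.09 in shMef2c. Before differentiation it stood at 26.83 RPKM in WT, 44.22 in KO, 43.27 in shCtrl and 41.85 in the library labelled shMef2c. The shMef2c line alone kept a day 5 level near that of day 0. Its share of reads was 6.37 times that in shCtrl (5.83 to 6.98). The controls differed too, and over WT its log2 ratio was 1.62 instead of 2.47. Epha1, an epithelial receptor, stood at 6.72 in WT, 3.75 in KO, 5.58 in shCtrl and 19.84 in shMef2c, and between 0.99 and 2.22 RPKM at day 0. It was highest in shMef2c and lowest in KO.

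Lower in shMef2c were Epha3 and Epha4, receptors of A ephrins in motor and cortical axons. Epha4, which also binds B ephrins and marks hindbrain segments, stood at 14.04 in WT, 8.35 in KO, 13.63 in shCtrl and 6.23 in shMef2c at day 5. Levels at day 0 were 10.23 RPKM in WT, 31.40 in KO, 19.27 in shCtrl and 27.43 in the library labelled shMef2c. KO was thus the lower line of its pair at day 5 and the higher one at day 0. Epha3 stood at 0.89 in WT, 0.36 in KO, 1.94 in shCtrl and 0.16 in shMef2c at day 5, and at 0.11 RPKM or less at day 0. It rests on 17 reads in shMef2c and 197 in shCtrl. Epha7 was lower by less than 2-fold, at 9.61 in KO and 4.87 in shMef2c (ratios -0.43 and -0.85), with 0.85, 1.06, 0.78 and 1.01 RPKM at day 0.

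Among EphB receptors, which mostly bind B ephrins, Ephb1 stood apart. Ephb1, which sends retinal axons to the same side of the brain, stood at 3.21 FPKM in WT, 2.89 in KO, 4.87 in shCtrl and 0.56 in shMef2c, with 0.16 to 0.27 RPKM at day 0. The shMef2c value lay below the other 3, which rest on 353 to 585 reads against 69. Ephb2 stood at 7.08, 3.47, 8.64 and 4.23 at day 5, with ratios of -0.85 and -0.88. Ephb3 stayed between 7.04 and 8.24 at day 5 and between 7.68 and 8.58 at day 0, a narrow range. Ephb4, a receptor of veins, and Ephb6, which lacks kinase activity, had ratios between -0.38 and 0.36.

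**Figure D3:**
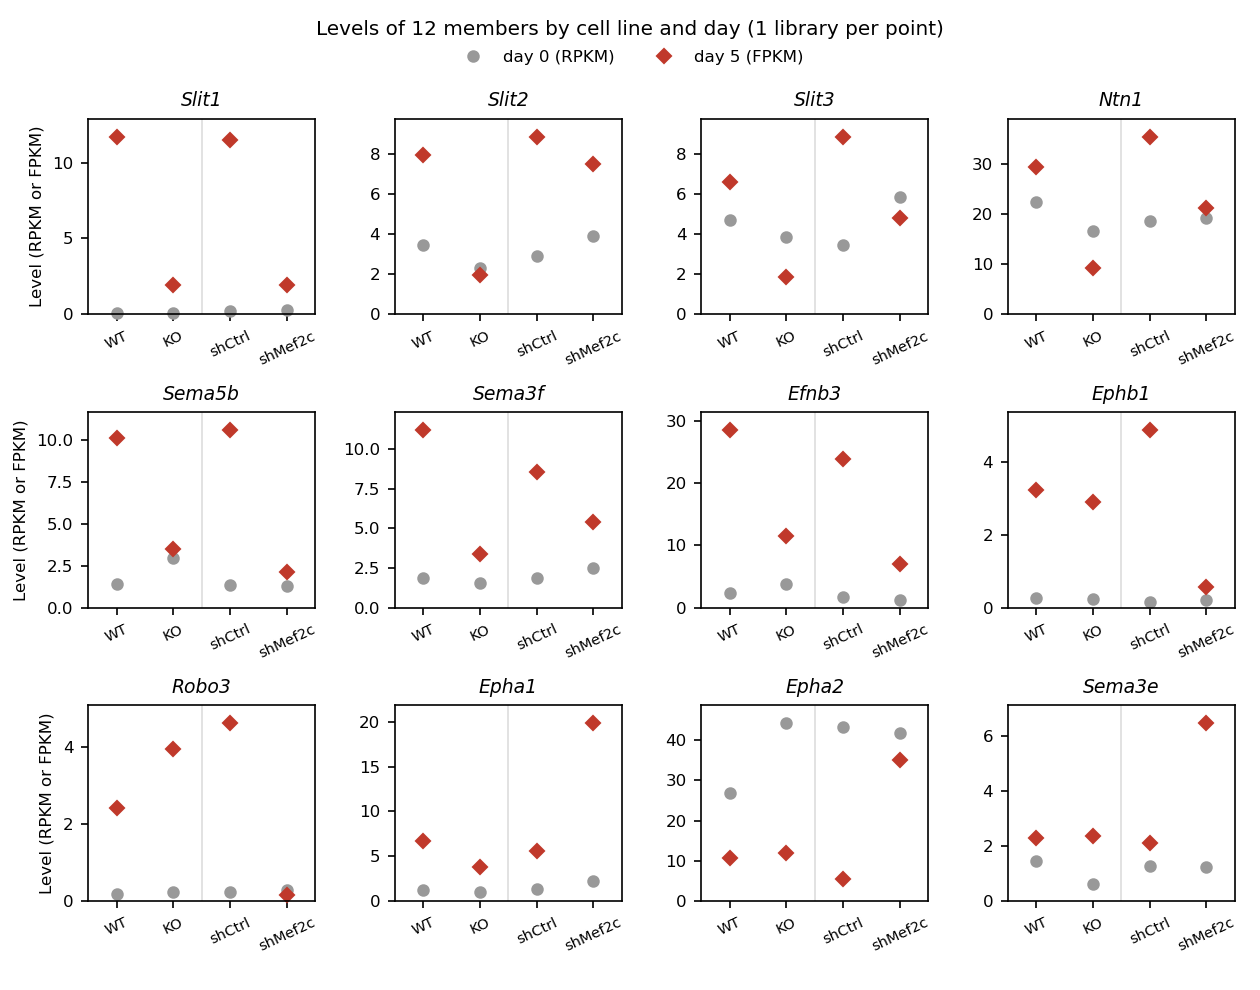
Levels of 12 members (vertical, RPKM at day 0 in grey circles and FPKM at day 5 in red diamonds) in the 4 lines (horizontal), each point 1 library with no error. Slit1, Efnb3 and Sema5b are low in both perturbed lines at day 5, Slit2 and Ntn1 are lowest in KO, Robo3 and Ephb1 are lowest in shMef2c, and Epha1, Epha2 and Sema3e are highest in shMef2c.

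Semaphorins ranged from lower in both lines to higher in shMef2c. Sema5b, a transmembrane semaphorin with thrombospondin repeats, stood at 10.11 FPKM in WT, 3.49 in KO, 10.60 in shCtrl and 2.13 in shMef2c. The day 0 cultures held 1.42 RPKM in WT, 2.94 in KO, 1.34 in shCtrl and 1.31 in the library labelled shMef2c. Both perturbed lines were below both controls at day 5, with read shares of 0.345 (0.308 to 0.386) and 0.201 (0.175 to 0.230) times the control. The closest relative, Sema5a, stood at 1.68, 0.82, 1.62 and 1.43, with ratios of -0.56 in KO and -0.11 in shMef2c, neither past 2-fold.

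Sema3f, a secreted repellent read by Nrp2, stood at 11.20 FPKM in WT, 3.39 in KO, 8.52 in shCtrl and 5.38 in shMef2c, and between 1.56 and 2.48 RPKM at day 0. Its log2 ratio was -1.47 in KO and -0.58 in shMef2c. Sema3e, a ligand that binds Plxnd1 without a neuropilin, stood at 2.27 in WT, 2.37 in KO, 2.10 in shCtrl and 6.46 in shMef2c. Its day 0 values were 1.45, 0.62, 1.27 and 1.25 RPKM. The shMef2c value alone stood out, at 3.07 times the read share of shCtrl (2.73 to 3.46). Plxnd1, its receptor, stood at 3.27 in WT, 0.99 in KO, 3.37 in shCtrl and 2.24 in shMef2c at day 5, and between 1.49 and 2.41 RPKM at day 0. The ligand was thus high in shMef2c and the receptor low in KO.

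Among members past the filter, Sema4b of class 4 had the highest ratio of KO over WT at day 5. Sema4b stood at 13.71 FPKM in KO and 13.22 in shMef2c, against 7.11 in both controls, with ratios of 0.86 and 0.81. At day 0 it stood at 17.36 in KO and 23.98 in the library labelled shMef2c. Sema4d stood at 6.46 in KO and 8.02 in shMef2c, against 4.50 in both controls, and at 8.01 and 11.72 at day 0. Both perturbed values of both genes lay between the day 5 controls and the day 0 levels, and neither gene passed 2-fold. Sema4c was at 10.70 in KO and 10.51 in shMef2c, below its controls, and at 0.94 and 1.16 RPKM at day 0. Sema4a stood at 0.99 and 1.15 in the perturbed lines at day 5 and at 2.93 and 2.56 at day 0, and Sema4f at 0.61 and 0.71, and at 1.37 and 1.71. In class 6, Sema6a had ratios of -0.61 in KO and 0.76 in shMef2c, and the other 3 genes lay between -0.67 and 0.07.

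Plexins, the semaphorin receptors, were mostly lower by less than 2-fold. Plxna2, a receptor of class 3 and class 6 semaphorins, stood at 7.46 FPKM in WT, 3.10 in KO, 5.84 in shCtrl and 2.65 in shMef2c, and between 0.88 and 1.33 RPKM at day 0. Its ratio in KO was -1.05 over WT and -0.74 over shCtrl. Plxna3 stood at 6.72, 3.37, 6.51 and 3.08 at day 5. Plxnb1 stood at 15.34, 9.52, 15.18 and 9.89, with 2.11 RPKM in KO and 3.01 in the library labelled shMef2c at day 0. Of 7 measured plexins, 6 were below 0 in each comparison, with medians of -0.64 in KO and -0.57 in shMef2c.

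The change from day 0 to day 5 was then compared between each perturbed line and its control. The shMef2c course starts from the library labelled shMef2c, whose day 0 Mef2c level goes against the label. Members were picked as high in the control course, so each value is given beside that of all features picked the same way. Of the 23 members higher in WT, 20 were measured in the KO course, and 14 of these (70.0%) were higher by 2-fold there too. Over all features that share was 52.9%. The members not measured, Ntn4, Robo2 and Sema6d, averaged under 1 over both days in KO. Over the full picks, 14 of 23 members and 893 of 1836 features were past the filter and higher in KO. The median of the 20 measured members was 2.02 in WT and 1.37 in KO, against 1.48 and 1.04 for features. Of these, 18 of the 20 members and 1460 of 1689 features had a smaller ratio in KO. Of the 24 members higher in shCtrl, 19 were measured in the shMef2c course, and 11 (57.9%) were higher there, against 51.8% of features. The others, Epha3, Ephb1, Ntn4, Robo2 and Robo3, failed the filter because they stood under 1 on both days of that course. Over the full picks, 11 of 24 members and 840 of 1863 features were past the filter and higher, nearly the same share. The higher share among measured members thus rests on the filter. The median of the 19 measured members was 1.98 in shCtrl and 1.15 in shMef2c, where that of features was 1.02. Of these, 17 of the 19 members and 1354 of 1622 features had a smaller ratio. Most features picked this way thus had smaller ratios in the perturbed lines too. The 2 medians lay further apart for members than for features, but members also had the higher control medians. A wider gap can follow from that, and the difference was not tested. Over all 43 members measured in both courses of a pair, 32 had a smaller ratio in the perturbed line in each pair, against 5886 of 11631 features for KO and 5355 of 11788 for shMef2c. In all, 16 of 44 measured members were higher and 2 lower in KO (10.1% and 9.79% of features), and 13 of 45 were higher and 1 lower in shMef2c (9.37% and 9.50%). The lower members were Epha2 (-1.82) and Epha4 (-1.81) in KO and Epha4 (-1.94) in shMef2c.

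**Figure D4:**
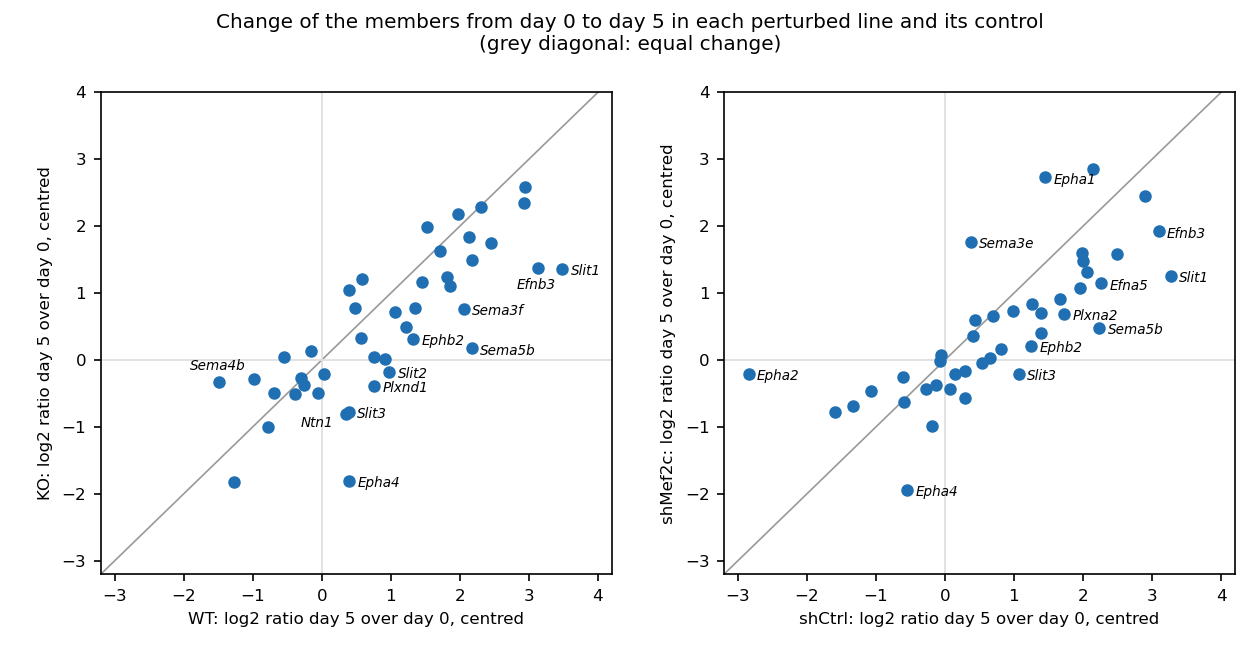
Log2 ratio of day 5 over day 0, centred on the median of all features, in each control line (horizontal) and its perturbed line (vertical), with points for members measured in both and a grey line of equal change. Of 43 members in each panel, 32 lie below the line in each (5886 of 11631 features for KO, 5355 of 11788 for shMef2c, not drawn), with Slit1 and Efnb3 far to the right in both, and Epha2 and Epha1 lie above it in the shMef2c panel.

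At day 0 the lines differed in few members. In KO, Epha4 was higher and Efna2 lower than in WT (1 of 36 each way, 1.35% and 1.58% of features, 2.93% together), with Efna2 at 4.02 RPKM against 10.11. Both counts ended against shCtrl, where 0 of 35 members were 2-fold apart (1.80% of features). The library labelled shMef2c was 2-fold apart from shCtrl in 0 of 38 members (0.231%). Its ratios were above 0 for 26 members and below for 12, where 42.3% of features were below 0. From WT it was apart in 1 of 38 (2.59%), which is Epha4, at a log2 ratio of 1.34. The control libraries were apart in 0 of 37 (1.27%). The 14 feeder fibroblast markers summed to 430.6 RPKM in the library labelled shMef2c, against 240.9 to 261.1 in the others, with none listed at 0. Slit3, Slit2 and Sema3c, at 5.89, 3.88 and 3.36 RPKM, were highest in that library among the day 0 cultures, and the part of feeder cells in this was not tested. These 3 genes were picked after their values were seen. At day 5 the feeder markers summed to 34.0 to 49.7 FPKM.

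Co-receptors and other cues of the same pathways included lower genes in both lines. Of 25 such genes, 17 were measured in KO, with 2 lower than in WT and 0 higher, where 3.26% of all features were lower. Their median was -0.47, with 10 of the 17 ratios below 0, where 49.8% of all features were below 0. In shMef2c, 7 of 17 were lower and 0 higher, where 4.78% of features were lower. There 16 of the 17 ratios were below 0, against 54.7% of features, and the median was -0.78. The difference between the lines was not tested, and the list median between the controls was 0.37 in favour of shCtrl. Rgma, a repulsive ligand of Neo1, stood at 14.66 FPKM in KO against 31.93 and at 9.91 in shMef2c against 35.18. Ntng2, a netrin-like cue on the axon surface, and Draxin, a netrin inhibitor, were next in KO, at 0.58 against 2.18 and 0.82 against 2.02. Cntn2 and L1cam, adhesion proteins of axons, stood at 0.52 against 5.39 and 0.35 against 2.84 in shMef2c. Dcc, the netrin receptor, was near silent there at 0.13 against 1.94. The highest ratios in KO were those of Unc5b (8.49 against 5.70), Cntn2 (3.53 against 2.73) and Flrt3 (17.86 against 15.78). In shMef2c they were those of Unc5b (10.34 against 7.48), Neo1 (11.84 against 13.75) and Nrp1 (4.83 against 5.75), so only Unc5b, a repulsive netrin receptor, lay above its control there.

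Of 39 intracellular effectors, 34 were measured in KO with 2 lower and 0 higher, and 33 in shMef2c with 4 lower and 0 higher, and the medians were -0.17 and -0.27. Over all features 3.26% were lower in KO and 4.78% in shMef2c, so the count in KO lies near the background. The lowest in KO were Dpysl2 (3.32 FPKM against 9.94), Dpysl5 (13.84 against 36.48) and Srgap3 (7.71 against 14.88). Dpysl proteins relay semaphorin signals to microtubules, and Srgap proteins act below Robo. In shMef2c the lowest were Dpysl4 (2.72 against 18.76), Srgap3 (4.90 against 15.05) and Cdk5r1 (0.75 against 3.32), the activator of the kinase Cdk5. The highest were Enah (30.48 against 19.97), Vav3 (1.63 against 0.79) and Abl2 (8.16 against 6.04) in KO, and Mical3 (6.76 against 4.68), Vasp (38.83 against 29.14) and Srgap2 (10.02 against 8.30) in shMef2c. Enah and Vasp extend actin filaments.

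Cell type markers also differed between the lines at day 5. Over all features, 3.26% were lower and 4.05% higher in KO, and 4.78% and 4.49% in shMef2c. The 14 neural progenitor markers summed to 835.1 FPKM in WT and 881.1 in shCtrl, against 364.5 in KO and 301.8 in shMef2c, with none listed at 0. Of these, 7 were lower and 1 higher in KO, and 12 lower and 0 higher in shMef2c. Vim (290.36 in WT, 75.64 in KO) and Fabp7 (173.67 and 29.95) held much of the WT sum. Lhx2 was higher in KO (16.76 against 3.38). The 15 neuron markers summed to 365.5 in WT, 330.8 in KO, 533.9 in shCtrl and 140.8 in shMef2c. Of these 15, 4 were lower and 1 higher in KO, and 13 lower and 0 higher in shMef2c. Robo3, Robo2, Ephb1, Dcc, L1cam and Cntn2 were picked here as lowest in shMef2c, so a minimum in the same line as the neuron markers follows from the pick. Other members were also lowest in that line, such as Efnb3 (7.06), Sema5b (2.13) and Epha4 (6.23). The 13 hindbrain and caudal markers summed to 159.5 in WT, 35.6 in KO, 152.6 in shCtrl and 99.1 in shMef2c, and Slit2, Slit3 and Ntn1 were likewise lowest in KO with shMef2c between it and the controls. The 15 naive pluripotency markers summed to 811.1, 2080.0, 555.9 and 2645.1, with none at 0, and Sema4b and Sema4d had their higher values in the same lines. The 10 mesoderm markers summed to 157.5 in shMef2c against 52.3 in shCtrl, 53.2 in WT and 18.3 in KO, where Mesp1 and Msgn1 were listed at 0 or not at all. Outside KO most of this sum was T, at 105.94 in shMef2c, 36.55 in shCtrl, 40.47 in WT and 0.35 in KO. In KO most of it was Tcf15, at 14.07 against 5.96 in WT. Over WT, 3 of 10 were measured in KO, with 1 higher and 1 lower. Over shCtrl, 5 were measured in shMef2c, with 4 higher and 0 lower. Epha1 had the same order of lines as the sum and as T. The 11 endoderm markers summed to 106.8 in KO against 55.8 in WT, with 6 of 10 measured higher and 2 lower, and to 91.3 in shCtrl and 88.4 in shMef2c, with none listed at 0. Afp, a protein of visceral endoderm and fetal liver, stood at 23.33 in KO and at 0.36 or less in the other lines. Foxa2, which marks floor plate as well as endoderm, stood at 30.38 in WT, 6.45 in KO, 37.44 in shCtrl and 30.55 in shMef2c, and KO alone was low, as for Slit2. Cer1, of the same list, stood at 12.59, 0.14, 13.27 and 30.27 in that order of lines. T, of the mesoderm list, was likewise low in KO alone. Members set beside these lists were chosen after their values were seen, and the part of these cell types in the members' values was not tested.

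The authors' deposited tables, made with a Poisson-based method on ratios without a pseudocount, list 17 of the 62 members for KO over WT, 16 lower and 1 higher. For shMef2c over shCtrl the authors' deposited table lists 22, 18 lower and 4 higher. The 1 higher member in the first is Robo4, with a log2 ratio of 3.19, and the authors' deposited table for shMef2c gives it 2.62. Members listed there but under the filter on low levels here include Plxna4, with a log2 ratio of -1.94 in the authors' deposited table for KO and -2.02 in that for shMef2c. Plxna4, a receptor of Sema3a and class 6 semaphorins, stood at 0.69 FPKM in both controls, 0.18 in KO and 0.17 in shMef2c. Those tables use the same libraries and are no independent check. How many of all genes the authors list in each direction was not counted, so these counts have no background.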

How the data were processed

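Polyadenylated RNA was sequenced from 8 cultures, 1 library per group. The authors deposited a file per day 5 library with estimated (expected) counts and FPKM, and 1 day 0 table with estimated counts and RPKM, per the file headers. A feature that a day 5 file does not list, which holds none under 0.01 FPKM, was set to 0. The authors' deposited day 5 comparison tables hold log2 ratios and a false discovery rate, that is adjusted p-values, and list only genes past a cut on both. RSEM, Bowtie, Bowtie2, HISAT and HISAT2 and the build mm9 appear in the submitters' processing notes, without a role. No source used here gives the strand setting of the counting, and reads of overlapping genes on opposite strands cannot be told apart.

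Members were found by symbol. Ratios used a pseudocount of 1, a minimum of 1 for the mean of both values, and a 2-fold threshold. No test was made, since no group has a replicate. Intervals are exact (Clopper-Pearson) 95% intervals on rounded estimated reads and cover counting error only. Values are given for members past 2-fold in either day 5 comparison, the 3 highest median levels, and the 5 highest and 5 lowest day 5 over day 0 ratios averaged over the controls. For the 2 pathway lists the 3 highest and 3 lowest ratios are named. Other genes named with values were chosen after those were seen. Members and lists were chosen with earlier results of these data known. Alternatives were a pseudocount of 0.1, no filter, TMM factors of edgeR 4.0.16, size factors of DESeq2 1.42.0, no centring and the other control library. The script was tested on simulated data. RefSeq tables of GRCm38.p6 gave promoters and gene order, with gene IDs found for 62 of 62 members.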

Additional observations from a re-analysis of the deposited data

Results flagged for a closer look

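Of the members measured on both days, 2 had KO over WT ratios of opposite direction on the 2 days, at 2-fold or more on one and 1.5-fold or more on the other, from 1 library each. In that comparison 36 members were measured at day 0 and 49 at day 5. The share of all features that meet this rule was not counted. The difference was not tested. Epha4 was higher in KO at day 0 (log2 ratio 1.53) and lower at day 5 (-0.69), so the day 5 ratio minus the day 0 ratio was -2.21. Sema5b had a ratio of 0.70 at day 0 and -1.31 at day 5, a difference of -2.01. Against shCtrl in place of WT, Epha4 in KO was at 0.68 and -0.65, and Sema5b at 0.75 and -1.37. Sema5b still met the rule there, and Epha4 did not, as it was under 2-fold on both days.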

How the results depend on the processing

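Counts of members past 2-fold stayed within 1.5 times the reported count in 66 of 72 alternative settings. With no filter on low values, 1 member was higher in KO than in WT at day 5, which is Robo4, against 0. With a pseudocount of 0.1, 6 members were apart between KO and WT at day 0 in place of 2, 1 between the control libraries at day 5 in place of 0, and 4 lower at day 5 in WT in place of 2. Against the other control library, 0 members were apart for KO at day 0 in place of 2, and 1 for the library labelled shMef2c in place of 0, which is Epha4. The cause of these differences was not tested. Requiring both control libraries, chosen after seeing the data, left 7 and 8 lower members, with no count over all features beside them. None of the named day 5 ratios past 2-fold changed direction under the settings tried. With a pseudocount of 0.1, ratios of scarce members grew most, such as Robo3 in shMef2c (-4.18 in place of -2.27) and Epha3 (-2.97 in place of -1.34). No paired analysis was possible because each group has 1 library and no replicate numbers. Depth limits Epha3, Ntn4, Robo3 and Robo4, each with under 50 reads in at least 1 day 5 library.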
